A study of Mus musculus with 3 samples.

Results

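The cells described here are CD11b-gene-bearing myeloid cells of mouse tumours, read from 30209 barcodes in 3 single-cell RNA libraries. They were chosen by their counts and not by a deposited label. Each lay outside the authors' cDC1 table and carried at least 1000 genes, with under 10% of its UMIs on mitochondrial genes, at least 1 UMI of *Itgam*, the gene of CD11b, and no UMI of *Flt3*, *Xcr1*, *Ncr1*, *Cd3e* or *Mki67*. Of the 4926 barcodes that met this, the 1331 C1q-rich cells held at least 5 UMIs of *C1qa*, a chain of complement C1q, and none of *Ear2*, and the 576 *Ear2*-rich cells held at least 5 of *Ear2*, the gene of a ribonuclease. The rule does not exclude cDC2s, which also carry *Itgam*. The study compared dendritic cells from MCA205 LA-OVA tumours, a transplanted fibrosarcoma carrying the model antigen OVA, between WT, sGSN-/- and sGSN-/-Clec9a-/- mice. The sGSN-/- mice lack secreted gelsolin, a plasma protein that clears actin filaments, and the sGSN-/-Clec9a-/- mice also lack DNGR-1, through which cDC1s bind the actin of dead cells. Both knockouts had been backcrossed to C57BL/6J, mice of both sexes were between 6 and 20 weeks old, and tumours were taken on the fifth day. Tumours of many mice were pooled into 1 library per genotype, and none of them was repeated. The sort kept live CD45+ CD11c+ MHCII+ cells without lineage markers and without CD88, a receptor of monocytes and macrophages, and sorted subsets were mixed afterwards. The numbers given here are therefore those of cells that passed a gate meant for dendritic cells, not those in the tumour.

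Monocytes entering a tumour carry *Ly6c2* and *Plac8*, and as they become macrophages they gain the chains of complement C1q, *Apoe* and *Trem2*. *Hspb1* encodes a small heat shock protein that holds unfolding proteins, and its gene is switched on by heat shock factor. These groups were formed after the data had been seen, and their values are described without a test.

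Values per library are given in the order WT, sGSN-/- and sGSN-/-Clec9a-/-, as CPM, a gene's UMIs scaled to the same total for every sum of cells. The targeted genes were read first, as a check of the labels. *Clec9a*, the gene of DNGR-1 (ENSMUSG00000046080, chromosome 6, 129408862 to 129424763, plus strand), was at 168, 168 and 0.0931 CPM in the deposited cDC1s and at 1.36, 1.76 and 0 CPM in C1q-rich cells. In cDC1s the sGSN-/-Clec9a-/- library stood apart from the others. *Gsn*, the gene of gelsolin (ENSMUSG00000026879, chromosome 2, 35256380 to 35307892, plus strand), was at 265, 323 and 279.9 CPM in C1q-rich cells and at 152, 169 and 167 CPM in cDC1s. It was lowest in WT in both groups, a difference between single libraries that carries no test. The matrices count UMIs per gene, so secreted and cytosolic gelsolin transcripts could not be told apart, and no transcript read here checks the sGSN-/- label.

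C1q-rich cells numbered 713, 274 and 344 in the libraries and *Ear2*-rich cells 293, 87 and 196. Their median depth was 14924 and 20123.5 UMIs, against 13501 in the 5806 deposited cDC1s. *Csf1r*, the gene of the receptor for macrophage colony-stimulating factor, was at 387, 391 and 407 CPM in C1q-rich cells, 237, 227 and 246 CPM in *Ear2*-rich cells and 7.77, 4.58 and 6.29 CPM in cDC1s, the background for a macrophage gene in these libraries. Macrophage genes did not all run this way, since *Mrc1*, given below, was higher in *Ear2*-rich cells. No macrophage list was summed for these groups. *Trem2*, a lipid receptor gene, was at 361, 308 and 368 CPM in C1q-rich cells and 55.3, 85.01 and 64.9 CPM in *Ear2*-rich cells, and *Spp1*, the gene of osteopontin, at 804, 800.2 and 838 CPM and 121, 82.5 and 87.6 CPM, where cDC1s had 80.2, 83.6 and 83.4 CPM, so that *Ear2*-rich cells were near that background for *Spp1*. The libraries of C1q-rich and *Ear2*-rich cells did not overlap for either gene. Nor did they for *Csf1r*, *Cd14* or *S100a6*, and how many of all genes separate this way was not counted. The 14 genes of the cDC2 list summed to 1683, 1739 and 1515 CPM in *Ear2*-rich cells, 695, 924 and 641 CPM in C1q-rich cells, 608, 638 and 576 CPM in cDC1s and 1603, 1693 and 1547 CPM in all 4926 barcodes. *Mgl2* (915, 892 and 749 CPM) and *Cd209a* (290, 338 and 301 CPM) made up most of the *Ear2*-rich sum. *Mgl2*, *Clec10a* and *Irf4* also belong to the interleukin 4 and 13 list, and the other 11 genes summed to 574, 648 and 575 CPM in *Ear2*-rich cells, 309, 402 and 288 CPM in C1q-rich cells, 586, 615 and 552 CPM in cDC1s and 925, 969.7 and 878 CPM in all 4926. The 19 classical monocyte genes summed to 10120, 10255 and 10611 CPM in *Ear2*-rich cells, 7958, 7946 and 8418 CPM in C1q-rich cells and 1569, 1733 and 1653 CPM in cDC1s. Without *Fn1* the first of these sums were 7670, 7576 and 7808 against 7013, 6993 and 7276 CPM. *S100a6* was at 3294, 3018 and 3167 against 2241, 2180 and 2303 CPM, a wider gap in every library than these sums had. *S100a4* was at 2012, 2040 and 2135 against 1641, 1713 and 1906 CPM. Single genes of the list differed in direction. *Ccr2* was at 1059, 1041 and 984 CPM in *Ear2*-rich cells and 789, 876 and 759 CPM in C1q-rich cells, and *Cd14* at 547, 659 and 599 CPM and 1512, 1448 and 1440.3 CPM. *Ly6c2* was at 20.2, 16.5 and 19.1 CPM in *Ear2*-rich cells, 32.6, 41.4 and 56.7 CPM in C1q-rich cells and 9.95, 14.5 and 13.9 CPM in cDC1s, and *Plac8* at 149.96, 139 and 206 CPM, 62.6, 92.9 and 84.9 CPM and 406, 556 and 514 CPM.

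*Retnla*, a gene that interleukin 4 induces in macrophages (ENSMUSG00000061100, chromosome 16, 48842551 to 48844461, plus strand), was higher in *Ear2*-rich cells. It was at 2199, 2011 and 2683 CPM in *Ear2*-rich cells, 80.1, 12.8 and 36.1 CPM in C1q-rich cells and 3.76, 2.59 and 6.52 CPM in cDC1s. In C1q-rich cells 1 cell of each library held 429 of 886, 48 of 58 and 88 of 174 of these UMIs. *Mrc1*, the mannose receptor gene, was at 568, 602 and 543 CPM in *Ear2*-rich cells and 158, 149 and 149 CPM in C1q-rich cells. The 16 genes of the interleukin 4 and 13 list summed to 5248, 5021 and 5497 CPM and 1594, 1802 and 1494 CPM. *Retnla*, *Mrc1* and *Mgl2* made up most of this difference, and the other 13 genes summed to 1565, 1516 and 1521 CPM and 1037, 1206 and 1016 CPM. *F10*, the gene of coagulation factor X, was at 97.8, 122 and 146 CPM in *Ear2*-rich cells and 21.4, 11.5 and 19.1 CPM in C1q-rich cells, and *Fn1*, the gene of fibronectin, at 2450, 2679 and 2803 CPM and 945, 953 and 1142 CPM. Transcripts of the oxidative stress list were more abundant in C1q-rich cells (19660, 19135 and 20239 against 10525, 12753 and 11726 CPM), mostly by the ferritin gene *Fth1* (13228, 12969 and 13403 against 5412, 7011 and 6815 CPM). The other 16 genes summed to 6433, 6166 and 6835 against 5113, 5742 and 4911 CPM. Most of this was *Ftl1*, also a ferritin gene, at 4585, 4389 and 4917 against 3546, 3929 and 3369 CPM. In the sGSN-/- library *Ftl1* had a wider gap than the sum of the 16 genes.

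**Figure D1:**
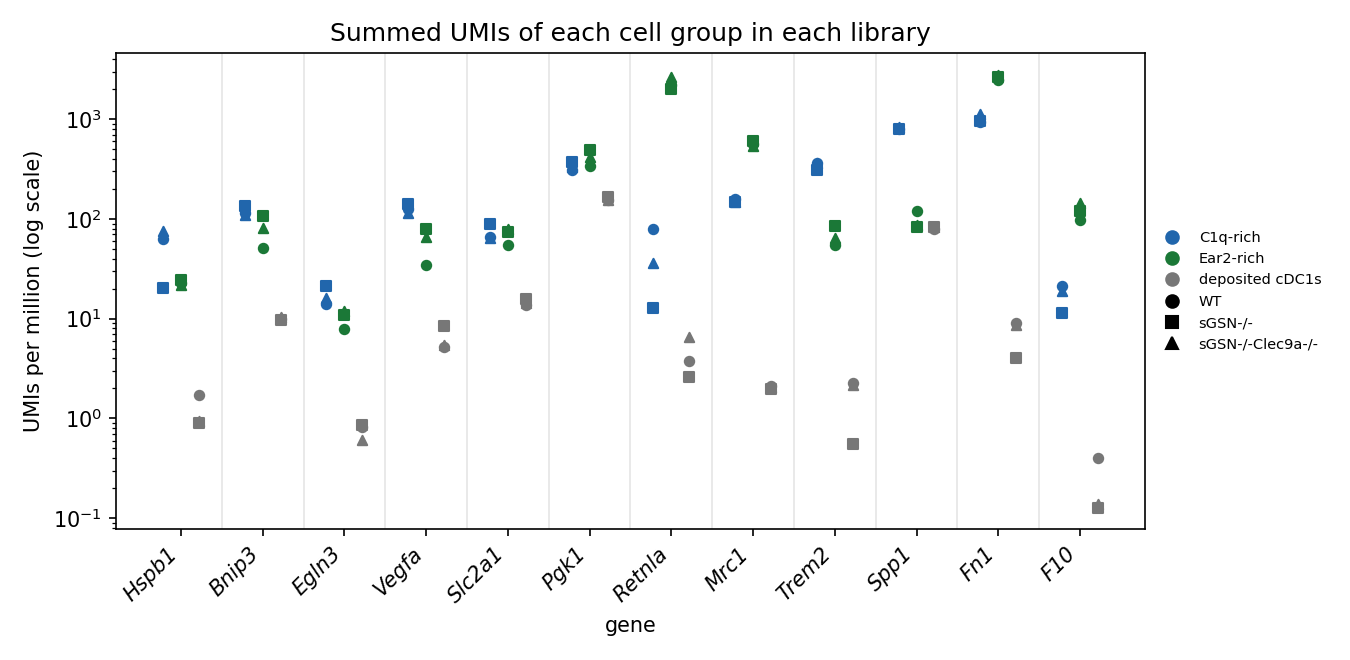
CPM of 12 genes (x axis) on a log scale (y axis) in the C1q-rich cells, Ear2-rich cells and deposited cDC1s (colour) of the 3 libraries (marker shape).

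Low oxygen stabilises the hypoxia-inducible factors, which switch on genes of glucose uptake, vessel growth and mitochondrial turnover. The 26 genes of the hypoxia list summed to 2356, 2639 and 2385 CPM in C1q-rich cells, 1860, 2560 and 2312 CPM in *Ear2*-rich cells and 745, 768 and 755 CPM in cDC1s. *Bnip3*, whose product sends mitochondria to autophagy, was at 114, 136 and 109 CPM in C1q-rich cells, 51.4, 108 and 80.7 CPM in *Ear2*-rich cells and 9.88, 9.80 and 10.3 CPM in cDC1s. *Vegfa*, the vessel growth factor, was at 127, 141 and 115 CPM, 34.2, 78.5 and 65.8 CPM and 5.17, 8.45 and 5.50 CPM. For both genes and for the sum, every library of either myeloid group lay above every library of cDC1s. How many of all genes have this order was not counted. The higher hypoxia values were not particular to these groups, since all 4926 barcodes had 2175, 2516 and 2422 CPM in sum, *Bnip3* at 81.98, 113 and 99.6 CPM and *Vegfa* at 88.7, 116 and 97.6 CPM. The 14 enzymes of glycolysis summed to 5478, 6059 and 5503 CPM in C1q-rich cells, 5144, 6821 and 5865 CPM in *Ear2*-rich cells, 2742, 2885 and 2745 CPM in cDC1s and 5185, 5806 and 5544 CPM in all 4926 barcodes.

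The promoters of the hypoxia genes were read for the core of the element that hypoxia-inducible factors bind, A or G followed by CGTG, on both strands. RefSeq windows of 300 bases around annotated starts were found for 23 of the 26 genes, and some genes have several. All 23 carried the core in at least 1 window, compared with 70.5% of 5480 genes at 10 CPM or more in C1q-rich cells and 46.7% of 27025 genes with a window. In every window of the gene it was present for 20 of the 23 (86.96%), 60.9% and 40.4%. The exceptions were *Kdm3a*, *Pdk1* and *Vegfa*, whose window at chr17:46032328-46032627 had none. ACGTG alone was present in at least 1 window of 19 of the 23 (82.6%), against 31.8% and 21.8%. Of 14 glycolytic enzymes 12 carried either form in at least 1 window (85.7%) and 9 in every window (64.3%). These matches describe the sequences and do not show that a factor was bound. The hypoxia list was drawn up from genes of that response, so its share describes the list and not these cells. Windows of *Bnip3* (chr7:138909457-138909756, minus strand) and *P4ha2*, which hydroxylates collagen (chr11:54100674-54100973, plus strand), of GRCm38.p6, are given as examples with several cores, in capitals on either strand.

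Bnip3: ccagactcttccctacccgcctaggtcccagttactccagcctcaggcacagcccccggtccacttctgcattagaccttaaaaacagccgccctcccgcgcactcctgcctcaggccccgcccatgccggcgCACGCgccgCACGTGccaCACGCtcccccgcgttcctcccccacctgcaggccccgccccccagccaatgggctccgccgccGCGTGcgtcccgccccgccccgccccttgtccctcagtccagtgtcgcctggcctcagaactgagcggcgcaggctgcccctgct

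P4ha2: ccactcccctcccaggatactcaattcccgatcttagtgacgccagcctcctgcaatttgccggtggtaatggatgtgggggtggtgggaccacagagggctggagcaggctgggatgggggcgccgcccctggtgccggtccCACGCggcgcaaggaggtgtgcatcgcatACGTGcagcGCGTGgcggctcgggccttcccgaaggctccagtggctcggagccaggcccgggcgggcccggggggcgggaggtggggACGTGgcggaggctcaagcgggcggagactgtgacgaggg

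*Hspb1* (ENSMUSG00000004951, chromosome 5, 135887919 to 135889563, plus strand) was at 62.9, 20.3 and 75.4 CPM in C1q-rich cells, 22.8, 24.5 and 21.7 CPM in *Ear2*-rich cells and 1.71, 0.891 and 0.931 CPM in cDC1s. The level came from few cells, and in *Ear2*-rich cells mostly from 1 cell of each library, which held 121 of 146, 46 of 49 and 73 of 92 UMIs. In C1q-rich cells the highest cell held 139 of 696, 42 of 92 and 178 of 363. A UMI was found in 45 of 1331 C1q-rich cells (3.38%, 2.48 to 4.50), in 24 of 576 *Ear2*-rich cells (4.17%, 2.69 to 6.14) and in 50 of 5806 cDC1s (0.861%, 0.640 to 1.13). With every cell thinned to 5000 UMIs the shares were 2.55%, 1.75% and 0.479%, and the order of the myeloid groups over all libraries was the other way round. By library the thinned shares were 2.57%, 1.87% and 3.05% in C1q-rich cells and 2.06%, 2.30% and 1.03% in *Ear2*-rich cells. The order turned in WT alone, since in sGSN-/-Clec9a-/- it was 3.78% against 3.57% before thinning. The intervals cover counting error only.

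C1q-rich cells with *Hspb1* (25, 7 and 13 by library) also carried more of the other chaperones, 17126, 19581 and 14180 CPM in sum over 18 genes against 6956, 6777 and 6276 CPM in those without it. *Hsph1*, a partner of the heat shock protein *Hspa1a*, was at 302, 406 and 439.9 CPM against 43.6, 53.1 and 37.8 CPM, and *Bag3*, a gene of the same response, at 114, 116 and 63.5 CPM against 21.9, 23.3 and 17.9 CPM. Hypoxia transcripts were at 5613, 6890 and 3122 CPM against 2249, 2488 and 2347 CPM and glycolytic enzymes at 11220, 13381 and 8452 CPM against 5289.9, 5799.9 and 5351 CPM. Single hypoxia genes did not all follow: in the sGSN-/-Clec9a-/- library *Vegfa* (93.1 against 116 CPM) and *Egln3* (4.23 against 16.6 CPM, the former value from 1 UMI) were lower with *Hspb1*. The cells differed in other ways as well. *C1qa*, by which they were chosen, was at 1667, 1096 and 1933 CPM against 3074, 2628 and 3242 CPM, *Ly6c2* at 11.4, 0 and 4.23 CPM (4, 0 and 1 UMIs) against 33.3, 42.9 and 59.4 CPM, *Plac8* at 111, 419 and 67.7 CPM against 60.99, 81.4 and 85.8 CPM, the MHC class II list at 40516, 41393 and 36634 CPM against 52011, 51338 and 47169 CPM, and the oxidative stress list at 28109, 24441 and 35712 CPM against 19383, 18947 and 19439.8 CPM (7650, 7006 and 13427 against 6393, 6136 and 6495 CPM without *Fth1*). The unfolded protein response differed less and not in 1 direction (4197, 6677 and 5072 against 4870.4, 5252 and 4747 CPM). The sum of the 19 classical monocyte genes was lower with *Hspb1* in WT and higher in the other libraries (6479, 8792 and 8867 against 8006, 7916 and 8395 CPM). Within that list *Ccr2* was at 507, 387 and 389 against 799, 893 and 778 CPM. *S100a6* was at 2225, 3100 and 3752 against 2242, 2147 and 2228 CPM. The cDC2 list was at 681, 1354 and 694 CPM with *Hspb1* against 696, 909 and 638 CPM without it. *Cd209a* of that list was at 14.2, 77.3 and 97.3 CPM (5, 12 and 23 UMIs) against 21.95, 35.6 and 26.2 CPM. These sums rest on 7 cells in the sGSN-/- library, and 1 of these cells held 48 of the 58 *Retnla* UMIs of all C1q-rich cells of that library. In the *Hspb1* promoter window (chr5:135887669-135887968, plus strand, RefSeq on GRCm38.p6), shown for the element of heat shock factor, GAANNTTC or TTCNNGAA in capitals was found at a pair of sites. Of the 19 genes of the list, *Hspb1* included, 14 had a window. At least 1 window with a match was found for 11 of these (78.6%), for 14.2% of the 5480 genes at 10 CPM or more and for 16.97% of all genes with a window, and a match in every window for 9 (64.3%), 10.02% and 13.6%. The list was drawn up from heat shock chaperones, so these shares describe the list and not these cells. They do not show that a factor was bound.

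Hspb1: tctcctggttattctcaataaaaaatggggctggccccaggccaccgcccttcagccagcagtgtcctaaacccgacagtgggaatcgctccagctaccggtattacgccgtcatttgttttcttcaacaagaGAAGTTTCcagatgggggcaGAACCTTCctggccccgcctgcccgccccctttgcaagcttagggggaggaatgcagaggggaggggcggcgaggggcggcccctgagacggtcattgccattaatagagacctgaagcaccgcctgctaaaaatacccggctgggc

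With 1 library per genotype, differences between the libraries carry no test and do not separate genotype from pool. The pools also differed in their balance of males and females, which cannot be told apart from genotype either. The chaperone sums of cDC1s (10928, 8595 and 8071 CPM), of *Ear2*-rich cells (9586, 8128 and 6849 CPM) and of C1q-rich cells (7278, 7214 and 6664 CPM) were highest in WT and lowest in sGSN-/-Clec9a-/-.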

How the data were processed

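The data are 3 droplet libraries, 1 per genotype, of sorted tumour cells. The authors deposited UMI counts per gene and barcode, made with Cell Ranger 6.0.1 per the file headers on mm10 (GRCm38), without normalisation. A deposited table of other values, the barcodes and libraries of the cDC1s kept after Seurat (4.0.0 per the labels, while the study's methods give v3 and R 4.0.0), served to leave these cells out and as a background. Gene lists were chosen with earlier results of these data known. The cell group first planned, and the comparisons with it, rest on an item that is not reported here.

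UMIs were summed per library and group, giving 11057146, 4540364 and 4815801 UMIs for the C1q-rich cells of the WT, sGSN-/- and sGSN-/-Clec9a-/- libraries and 6401878, 1999806 and 4237395 UMIs for the *Ear2*-rich cells. Sums were scaled to CPM (Python 3.11.15), and no test was made between these groups, which were formed after the data had been seen. The sums of a library share a pool of mice. *Hspb1* was left out of the chaperone sum.

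Alternatives were the 6% of barcodes with the highest Scrublet score (scanpy 1.11.5) left out, and at least 200 genes without a mitochondrial limit, both applied to these groups after the data had been seen. Shares carry exact Clopper-Pearson 95% intervals and were also read with cells thinned to 5000 UMIs, which left out shallower cells. Positions are those of GENCODE M21, matched by Ensembl identifier. Imaging, flow cytometry, other libraries and the deposited cDC1 clusters were not analysed here.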

Additional observations from a re-analysis of the deposited data

How the results depend on the processing

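The sums of hypoxia, glycolysis and chaperone transcripts and the shares of cells with *Hspb1* stayed within the spread of the libraries or the counting interval under both alternatives. Without the barcodes of highest doublet score, C1q-rich cells had 2472 CPM of hypoxia transcripts on average in place of 2459.9, and 3.35% of them a UMI of *Hspb1* in place of 3.38%. With at least 200 genes and no mitochondrial limit the values were 2458 CPM and 3.32%.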
